A study of Mus musculus with 6 samples.

Results

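Necroptosis and pyroptosis are routes of cell death that end in rupture of the plasma membrane, and 10 of their core genes were followed by name in retinal RNA, out of 54532 gene IDs in the count table: the death receptor genes Tnfrsf1a and Fas, Casp8, Ripk1, Ripk3 and Mlkl of the necroptosis branch, and Pycard, Casp1, Casp4 and Gsdmd of the pyroptosis branch. Each symbol stood for a single gene ID. The mice were C57BL/6J, wild-type, and 17 days old when the retinas were taken, 3 samples from normal mice and 3 from mice with OIR, taken to stand for oxygen-induced retinopathy, where pups breathe high oxygen for some days, lose retinal capillaries, and form abnormal vessels once back in room air. No genotype, allele or further agent separates the groups. Neither the oxygen schedule nor the number of animals behind a sample is stated in the labels, so the p-values reflect the spread among these samples alone, and that spread may be technical.

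In necroptosis, a death receptor such as the TNF receptor binds its ligand and assembles a complex around the kinase RIPK1. Where caspase-8 does not cut it, RIPK1 joins RIPK3, which phosphorylates MLKL, and MLKL then breaches the plasma membrane. In pyroptosis, a sensor of danger signals joins the adaptor ASC, made from Pycard, and activates caspase-1, while the caspase made from mouse Casp4 binds bacterial lipopolysaccharide directly, and both cut gasdermin D, whose fragment forms pores and lets mature cytokines out. These steps run through phosphorylation and cleavage of proteins, which RNA counts do not measure. In retina, both routes have been studied mostly in microglia, Müller glia and dying photoreceptors.

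The libraries held 15818168 to 17163513 counts each, and of the genes 17108 passed the filter on low counts and were tested. Rod markers summed to 44872 CPM or more in the normal libraries and 36370 CPM or more in the OIR libraries, where CPM is counts per 1e6 counts with TMM scaling, which shows the defining cell of retina in every library. The groups lay apart on the first principal component (54.9% of the variance). Read from Xist and genes of the Y chromosome, 2 normal libraries and 1 OIR library were male and 1 normal and 2 OIR libraries female. OIR 3 stood apart in a list of lens, pigment epithelium and surface tissue genes, with 4395 CPM in sum against 52.1 to 309.6 CPM in the other libraries.

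Of the 10 genes, 7 could be tested and 6 of those were higher in OIR retina (quasi-likelihood test of edgeR, adjusted p below 0.05), and none was lower. Over all genes tested, 11.1% were higher by that rule and 8.73% lower. Ripk3 had the largest difference, followed by Mlkl, Tnfrsf1a, Gsdmd, Casp8 and Ripk1, while Pycard did not pass. Ripk3, Mlkl and Gsdmd entered the test only through their OIR libraries, since none or 1 of their normal libraries reached the 0.602 CPM that the filter on low counts asks of 3 libraries, so the share of tested genes that passed is no measure of the set. Fas, Casp1 and Casp4 stayed below the filter. In whole tissue, more cells of a type and more RNA per cell cannot be told apart.

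**Figure D1:**
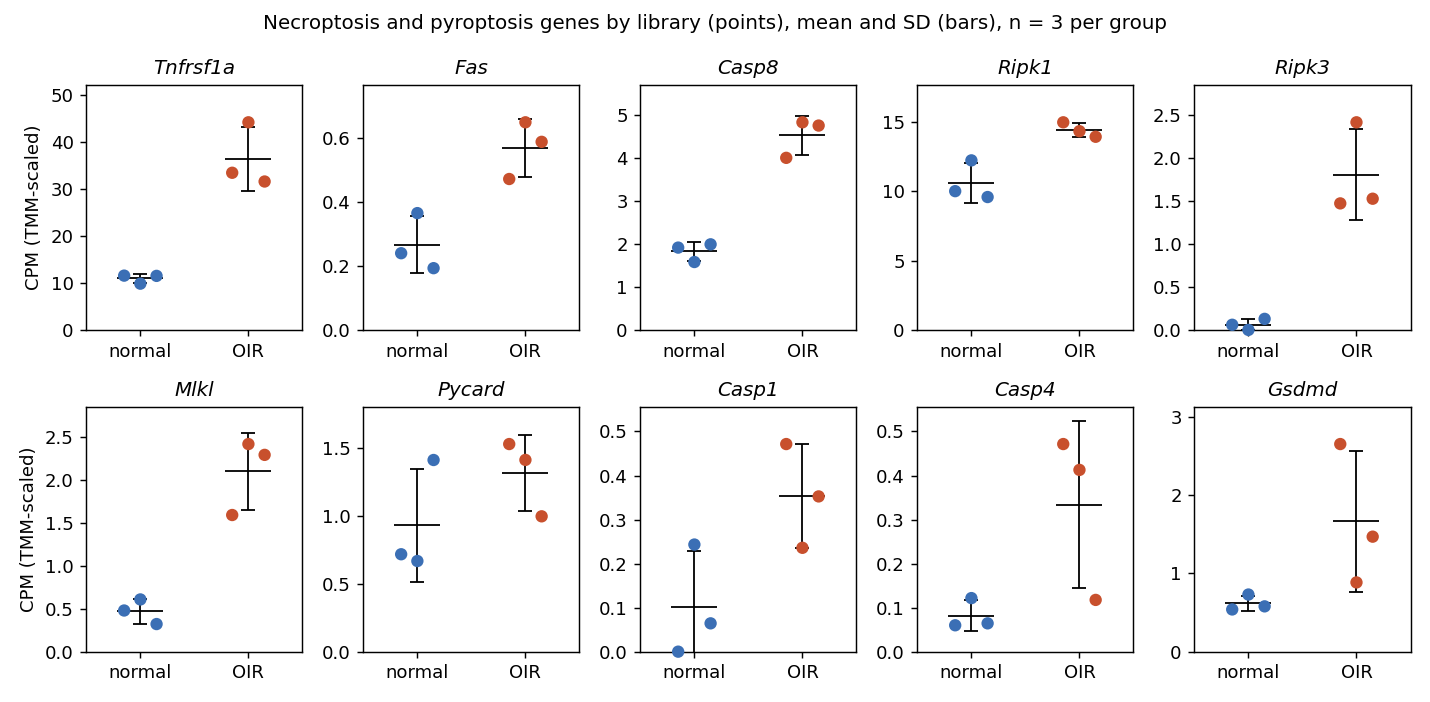
TMM-scaled CPM of the 10 genes in each library (points, blue for normal and red for OIR), with the mean and SD of 3 libraries per group (black bars), on a linear axis from 0 for each gene. Points of the groups overlap for Pycard, Casp1 and Casp4 and are apart for the other 7 genes.

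Groups did not overlap for 7 of the 10 genes, with every OIR library above every normal library. Among all genes with at least 1 count in any library, 12.3% had OIR libraries above without overlap, and among the genes tested 18.7%. For a single gene, an exact two-sided permutation test of mean log2(CPM + 0.1) gave p = 0.1 for these 7 genes, the smallest that 3 samples against 3 allow, and p = 0.2 for Pycard, Casp1 and Casp4.

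Among the death receptors, Tnfrsf1a, which encodes the main TNF receptor (ENSMUSG00000030341, chromosome 6, 125349362 to 125362484, plus strand, mm10), was at 11.6, 9.85 and 11.5 CPM in the normal libraries and at 33.5, 44.2 and 31.6 CPM in the OIR libraries. All OIR libraries were high, OIR 2 the most so, and the groups were far apart. Its mean went from 10.98 ± 0.973 to 36.4 ± 6.81 CPM (SD, n = 3), a log2 fold change of 1.73 with a standard error of 0.14, or 3.32-fold, and the edgeR adjusted p was 2.06e-05. Of the 17108 genes tested, 383 had a larger log2 fold change.

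Fas, the receptor of Fas ligand (ENSMUSG00000024778, chromosome 19, 34290659 to 34327770, plus strand), had 4, 6 and 3 counts in the normal libraries and 8, 11 and 10 in the OIR libraries. The OIR counts were higher without overlap, yet few. The summed counts, scaled for library size, gave a ratio of 2.13 (95% Clopper-Pearson interval for counting error, 1.07 to 4.47). An edgeR fit without the filter on low counts gave Fas an adjusted p of 0.404. The difference in Fas thus did not pass in that fit, though its groups did not overlap, and its counts are too few to settle it.

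In the branch point between survival and death, Casp8, whose protease activity cuts RIPK1 and RIPK3 and so holds necroptosis back (ENSMUSG00000026029, chromosome 1, 58795374 to 58847503, plus strand), was at 1.92, 1.58 and 1.99 CPM in the normal libraries and at 4.01, 4.84 and 4.76 CPM in the OIR libraries. The groups lay apart, with little spread inside each. Casp8 rose 2.47-fold, from 1.83 ± 0.219 to 4.53 ± 0.458 CPM (SD, n = 3), a log2 fold change of 1.31 with a standard error of 0.22 and an edgeR adjusted p of 0.00231.

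Ripk1, the kinase and scaffold at the TNF receptor (ENSMUSG00000021408, chromosome 13, 34002363 to 34037147, plus strand), changed least of the 6. It was at 10.01, 12.2 and 9.58 CPM in the normal libraries and at 14.97, 14.3 and 13.9 CPM in the OIR libraries. Normal 2 was the highest normal library and OIR 3 the lowest OIR library, and the gap between them was narrow. Ripk1 rose 1.36-fold, from 10.6 ± 1.42 to 14.4 ± 0.526 CPM (SD, n = 3), with a log2 fold change of 0.44, a standard error of 0.13 and an edgeR adjusted p of 0.0385. The call ended when any library other than Normal 2 was left out: the adjusted p was 0.0783 without Normal 1, 0.146 without Normal 3, 0.131 without OIR 1, 0.108 without OIR 2 and 0.0856 without OIR 3, with log2 fold changes of 0.37 to 0.45. Ripk1 also overlaps Serpinb6a, a protease inhibitor gene on the opposite strand, over 241 exonic bases (34002466 to 34002706) or 2.89% of its exonic length in GENCODE vM21. Serpinb6a was itself higher in OIR retina, with a log2 fold change of 1.04 and an edgeR adjusted p of 0.000107, and in libraries without strand information reads in the shared bases cannot be told apart.

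Ripk3, the kinase that commits a cell to necroptosis (ENSMUSG00000022221, chromosome 14, 55784995 to 55788865, minus strand), had 1, 0 and 2 counts in the normal libraries and 25, 41 and 26 counts in the OIR libraries. It was close to the detection limit in normal retina and clearly present in each OIR retina, where it stood at 1.47, 2.42 and 1.53 CPM. The summed counts went from 3 to 92, or 29.3-fold (95% interval for counting error, 9.72 to 145). The fit gave a log2 fold change of 4.71 (standard error 0.62) and an edgeR adjusted p of 0.00043, and 11 of the 17108 genes tested had a larger one. With so few normal counts the fitted size is loose, and it ranged from 4.17 without Normal 2 to 5.59 without Normal 3.

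Mlkl, the membrane effector that RIPK3 phosphorylates (ENSMUSG00000012519, chromosome 8, 111311797 to 111338177, minus strand), had 8, 10 and 5 counts in the normal libraries and 27, 41 and 39 counts in the OIR libraries. These corresponded to 0.479, 0.608 and 0.322 CPM in normal and 1.59, 2.42 and 2.29 CPM in OIR retina. OIR 1 was the lowest of the OIR libraries and still above every normal library. Mlkl rose 4.40-fold, from 0.470 ± 0.144 to 2.10 ± 0.445 CPM (SD, n = 3), with a log2 fold change of 2.14, a standard error of 0.37 and an edgeR adjusted p of 0.00238. Ripk3, Mlkl and Tnfrsf1a all had their highest value in OIR 2, though for Mlkl OIR 3 was close, with 39 against 41 counts.

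**Figure D2:**
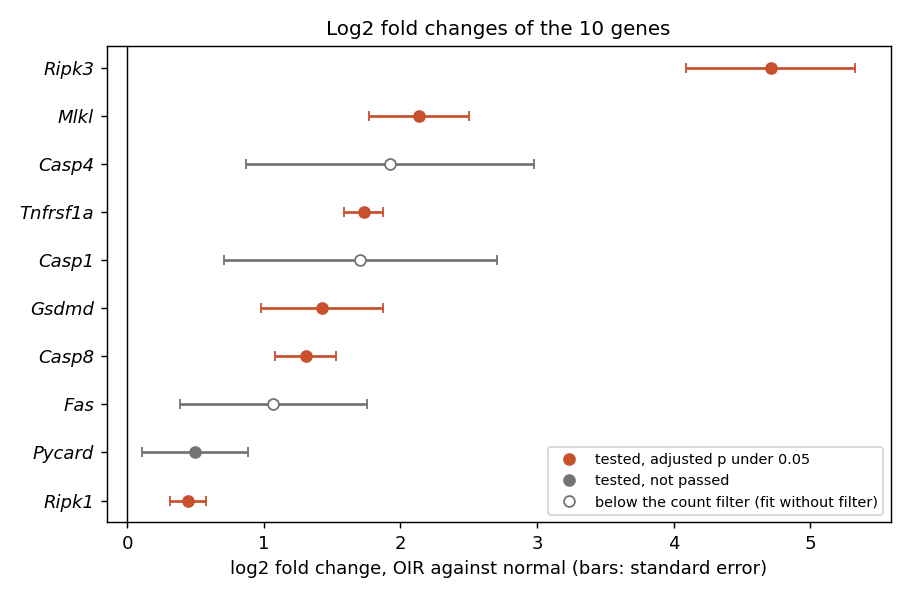
Log2 fold change of each of the 10 genes, OIR against normal, with its standard error, filled red where the edgeR adjusted p was under 0.05, filled grey where it was not, and open where the gene lay below the filter on low counts and the value comes from a fit without it. Ripk3 lies at 4.71 and Ripk1 at 0.44, and the open symbols have wide bars.

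Because Ripk3 and Mlkl had the largest differences among the genes that passed, the 250 bases before their start sites are shown here from RefSeq (GRCm38.p6, the build mm10). Those of Casp4, the only gene with an entry to hold the NF-kB letters, stand beside them. Casp4 is not shown as an unchanged gene: its ratio of summed counts was 4.06, from few counts. All are read 5′ to 3′ on the strand of the gene. Capitals mark a match to an NF-kB motif, and where there are none no match was found.
Ripk3 (chr14:55788858-55789107, minus strand): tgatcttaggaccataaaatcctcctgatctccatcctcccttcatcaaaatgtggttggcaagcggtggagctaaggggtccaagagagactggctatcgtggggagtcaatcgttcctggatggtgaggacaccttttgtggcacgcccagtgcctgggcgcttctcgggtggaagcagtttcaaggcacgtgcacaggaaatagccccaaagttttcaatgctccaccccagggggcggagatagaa
Mlkl (chr8:111338206-111338455, minus strand): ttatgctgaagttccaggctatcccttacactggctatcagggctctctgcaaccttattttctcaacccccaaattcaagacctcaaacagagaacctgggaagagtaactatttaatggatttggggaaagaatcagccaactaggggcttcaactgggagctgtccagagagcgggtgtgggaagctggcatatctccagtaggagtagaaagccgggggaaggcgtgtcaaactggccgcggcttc
Casp4 (chr9:5308599-5308848, plus strand): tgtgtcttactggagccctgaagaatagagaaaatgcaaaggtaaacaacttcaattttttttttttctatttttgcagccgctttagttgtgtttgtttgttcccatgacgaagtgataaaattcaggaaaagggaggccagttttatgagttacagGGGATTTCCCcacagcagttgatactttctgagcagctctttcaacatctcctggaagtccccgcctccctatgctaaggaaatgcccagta
The motifs searched, on both strands and without regard to overlap, were TTCNNNGAA for STAT factors, GAAA, any 2 bases and GAAA again for interferon regulatory factors, and GGGA, any 4 bases and CC for NF-kB. Among 32851 promoters of the same length, 7.02% held the STAT letters, 2.98% the interferon regulatory factor letters and 17.6% the NF-kB letters. Of the 10 genes, 9 had an entry, 11 in all. The upstream bases of Ripk3 and Mlkl held none of these motifs, nor did those of Casp8, Casp1 and Pycard. For Casp8 the RefSeq start, at 58802502, lies inside the counted gene, so the bases before 58795374 were not searched. The STAT letters were in Tnfrsf1a, starting 244 bases before the RefSeq start, in Fas, at 93 bases, and in the second of 2 Ripk1 start sites, at 108 and 11 bases. The NF-kB letters were in Casp4, at 92 bases before the start shown. These are matches of letters in a window, and binding was not measured.

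In the pyroptosis branch, Gsdmd, whose product forms the pore (ENSMUSG00000022575, chromosome 15, 75862327 to 75867408, plus strand), had 9, 12 and 9 counts in the normal libraries and 45, 15 and 25 in the OIR libraries. In CPM these were 0.539, 0.730 and 0.579 in normal and 2.65, 0.885 and 1.47 in OIR retina. The OIR libraries lay above the normal ones but were widely spread, with OIR 1 high and OIR 2 close to Normal 2. Gsdmd rose 2.69-fold, from 0.616 ± 0.101 to 1.67 ± 0.901 CPM (SD, n = 3), with a log2 fold change of 1.43, a standard error of 0.45 and an edgeR adjusted p of 0.0473. The call held without OIR 2 and ended without any other single library, with adjusted p of 0.105 without Normal 1, 0.0673 without Normal 2, 0.154 without Normal 3, 0.241 without OIR 1 and 0.0761 without OIR 3. The log2 fold change without OIR 1 was 0.92, and limma-voom gave an adjusted p of 0.0883 over all libraries.

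Pycard, the gene of the ASC adaptor (ENSMUSG00000030793, chromosome 7, 127989708 to 127993867, minus strand), had 12, 11 and 22 counts in the normal libraries and 26, 24 and 17 in the OIR libraries. Normal 3 lay above OIR 3, so the groups overlapped. The means were 0.934 ± 0.417 and 1.32 ± 0.280 CPM (SD, n = 3), and the log2 fold change of 0.50 had a standard error of 0.39 and an edgeR adjusted p of 0.419. At this depth a difference of this size was within the spread of replicates.

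Casp1, the inflammasome caspase (ENSMUSG00000025888, chromosome 9, 5298517 to 5307265, plus strand), had 0, 4 and 1 counts in the normal libraries and 8, 4 and 6 in the OIR libraries. Casp4, its neighbour on the same strand (ENSMUSG00000033538, chromosome 9, 5308828 to 5336783), had 1, 2 and 1 counts in the normal libraries and 8, 7 and 2 in the OIR libraries. Both sets of counts overlapped between groups, by a tie at 4 counts for Casp1 and at 2 counts for Casp4. The ratio of summed counts was 3.44 for Casp1 (95% interval for counting error, 1.23 to 11.9) and 4.06 for Casp4 (1.32 to 16.6). Neither passed in an edgeR fit without the filter on low counts, with adjusted p of 0.343 and 0.289, a fit in which 7.56% of genes were higher. At these depths 1 count in a library is worth 0.0588 to 0.0643 CPM, which limits what can be said of either gene.

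Read per length, as CPM per kb of the gene length in the table, the 10 genes fell into a clear order at the top only. Tnfrsf1a led with 4.24 ± 0.375 CPM per kb in normal retina, ahead of Ripk1 with 1.27 ± 0.170 and Casp8 with 0.633 ± 0.0758 (SD, n = 3), and these levels were further apart than their spread. Gsdmd, Pycard, Mlkl and Fas followed at 0.259, 0.246, 0.204 and 0.148 CPM per kb, each within the spread of its neighbour, and then came Casp1 at 0.0685, Ripk3 at 0.0274 and Casp4 at 0.0221. The last 3 rest on 3 to 5 normal counts each and cannot be ordered.

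In OIR retina Tnfrsf1a stood at 14.1 ± 2.63 CPM per kb, Ripk1 at 1.73 ± 0.0631 and Casp8 at 1.57 ± 0.158. Ripk1 and Casp8 were closer in OIR than in normal retina by this measure, with Casp8 below Ripk1 in every library. Casp8 was at 55.3%, 37.3% and 60.0% of Ripk1 in the normal and 77.2%, 97.3% and 98.6% in the OIR libraries. Mlkl, Ripk3 and Gsdmd followed at 0.912 ± 0.193, 0.788 ± 0.231 and 0.702 ± 0.379 CPM per kb, which overlapped. Pycard, Fas, Casp1 and Casp4 were last, at 0.346, 0.316, 0.236 and 0.0900 CPM per kb, of which the first 3 lay within the spread of their neighbours. The length matters for Ripk1, since the table's 8344 bases join all exons while the first-numbered GENCODE vM21 transcript has 3266: over that transcript Ripk1 stood at 3.25 and 4.41 CPM per kb in normal and OIR retina, and above Casp8 in both, at 0.708 and 1.75.

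**Figure D3:**
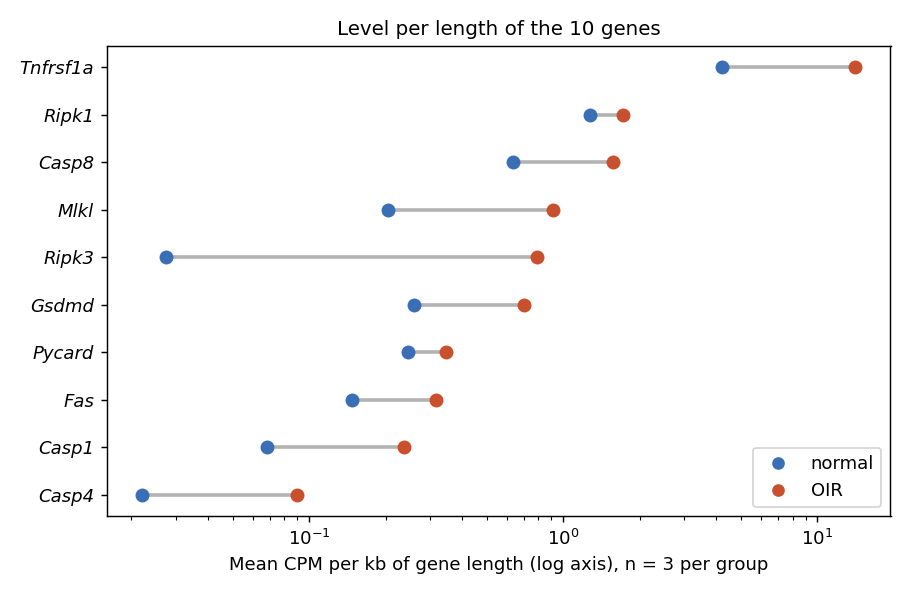
Mean CPM per kb of gene length on a log axis for the 10 genes, ordered by OIR level, with normal means in blue and OIR means in red (n = 3 per group) and a grey line joining them. The line of Ripk3 is the longest, from 0.0274 to 0.788, and those of Ripk1 and Pycard are the shortest.

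Tnfrsf1a and Ripk1 together held 83.2% of all counts of the 10 genes in normal retina and 80.0% in OIR retina. Of the counts of all 10 genes, Tnfrsf1a held 42.3% in normal and 57.4% in OIR retina, and Ripk1 40.9% and 22.7%. These are shares of counts, not scaled for gene length. The lower share of Ripk1 is no fall in its level, which was 1.36-fold higher in OIR retina. Ripk3 went from 0.238% to 2.84% of these counts and Mlkl from 1.82% to 3.31%.

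The difference was in the same direction for all 10 genes within each sex, on the log2(CPM + 0.1) scale. For Tnfrsf1a it was 1.93 among male and 1.71 among female libraries, for Casp8 1.26 and 1.41, for Ripk3 3.72 and 4.00 and for Mlkl 2.35 and 1.51. Ripk1 differed by 0.54 and 0.24, and Gsdmd by 0.58 and 1.32. With sex as a covariate the edgeR adjusted p was 0.0816 for Ripk1 and 0.126 for Gsdmd, and the 4 other calls held. Each sex has 1 library in one of the groups, so these differences carry no test of their own.

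Other genes of the pathway were read from 5 lists by role. As with the 10 genes, some were tested only because of their OIR libraries, with fewer than 3 normal libraries at the 0.602 CPM of the filter, and for these genes the count of those that passed is no support: Tlr4 and Tlr2 of the 8 higher genes upstream, Birc3 of the 2 in the receptor complex, and Ifi204 and Naip2 of the 5 inflammasome genes. Tlr2 and Naip2 are named here after their values were seen. The list of upstream ligands, receptors and sensors had 13 of 16 genes tested, of which 8 (61.5%) were higher and none lower. Over all genes tested, 11.1% were higher and 8.73% lower. The median log2 fold change of the list was 0.71, against 0.01 over all genes tested. Tnfrsf1b, the second TNF receptor, went from 3.95 ± 0.637 to 8.83 ± 0.590 CPM (SD, n = 3), a 2.23-fold rise (edgeR adjusted p of 0.000986). Tlr4, the lipopolysaccharide receptor, rose 5.06-fold from 0.685 ± 0.426 to 3.47 ± 0.473 CPM. Its adaptor gene Ticam1, which can engage RIPK3, rose 1.81-fold, and Myd88, the adaptor of most Toll-like receptors, rose 1.63-fold. Myd88 no longer passed without OIR 2, with an adjusted p of 0.0664, and overlaps Acaa1a on the other strand. The ligand gene Tnf, named after its values were seen, had no count in normal libraries and 7, 9 and 3 counts in OIR libraries, and passed in the edgeR fit without the filter (adjusted p of 0.00703). Zbp1, a sensor that activates RIPK3 and likewise chosen after its values were seen, had a log2 fold change of 0.88 and did not pass (edgeR adjusted p of 0.204).

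The number of upstream genes that were higher fell to 4 without Normal 2, Normal 3, OIR 1 or OIR 2 and to 5 without OIR 3. Of the genes named, Tnfrsf1b, Tlr4 and Ticam1 passed in each of these fits.

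The TNF receptor complex and its ubiquitin regulators, which decide between survival signalling and death, had all 21 genes tested, with 2 higher, 2 lower and a median log2 fold change of -0.01. Birc3, a ubiquitin ligase of the complex and a target of NF-kB, rose 4.29-fold from 0.439 ± 0.326 to 1.88 ± 0.213 CPM (SD, n = 3; edgeR adjusted p of 0.0102). Mapkapk2, a kinase that phosphorylates RIPK1, rose 1.47-fold from 46.2 ± 3.52 to 67.9 ± 4.18 CPM. The deubiquitinase gene Tnfaip3 had a log2 fold change of -0.43, from 276 ± 2.16 to 205 ± 11.5 CPM, and Xiap, an inhibitor of caspases, one of -0.46, from 456 ± 38.6 to 332 ± 5.15 CPM. The share of this list that was higher, 9.52%, was near the 11.1% over all genes. The remaining 17 genes, among them Cflar and Fadd, both named after their values were seen, with log2 fold changes of -0.09 and 0.08, did not pass.

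Inflammasome sensors and partners had 14 of 26 genes tested, with 5 higher and none lower and a median log2 fold change of 0.38. The share higher was 35.7%, against 11.1% over all genes tested, and it includes Ifi204 and Naip2, tested only through their OIR libraries. Irf1, a transcription factor of interferon responses, rose 2.47-fold from 4.03 ± 0.187 to 9.97 ± 1.57 CPM (SD, n = 3; edgeR adjusted p of 0.000403). P2rx7, the ATP-gated channel that triggers the NLRP3 inflammasome, rose 3.37-fold from 1.22 ± 0.176 to 4.10 ± 0.887 CPM. Ifi204, a nucleic acid sensor gene whose family of close copies makes its level uncertain, rose 6.00-fold from 0.226 ± 0.126 to 1.39 ± 0.362 CPM. Txnip, a binding partner of NLRP3, rose 1.56-fold, and no longer passed without Normal 3 (adjusted p of 0.0602) or OIR 1 (0.0525). Without OIR 1 the list had 3 higher genes. Nlrp3, named after its values were seen, lay below the filter with 5 normal and 34 OIR counts, or 6.50-fold (95% interval for counting error, 2.53 to 21.3), and passed in the edgeR fit without the filter (adjusted p of 0.0161). Its counts were 3, 2 and 0 in the normal libraries and 14, 16 and 4 in the OIR libraries. Other untested sensors, also named after their values were seen, varied. Nlrc4 had 27 normal and 24 OIR counts, Nlrp10 17 and 21, and Nlrp1b 1 and 9.

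Executioners, substrates and cytokines had 11 of 15 genes tested, with 2 higher, 2 lower and a median log2 fold change of 0.11. The share higher was 18.2%, while over all genes tested 11.1% were higher and 8.73% lower. Ninj1, whose product ruptures the membrane of dying cells, rose 1.92-fold from 9.73 ± 1.98 to 18.7 ± 1.86 CPM (SD, n = 3; edgeR adjusted p of 0.00197). Casp6 rose 1.44-fold from 5.76 ± 0.333 to 8.30 ± 0.270 CPM, and its adjusted p was above 0.05 without Normal 1 (0.0575), Normal 3 (0.064), OIR 1 (0.0712), OIR 2 (0.101) or OIR 3 (0.0749), so that 1 gene of the list was higher in those fits. The alarmin gene Il33 had a log2 fold change of -0.45, from 57.5 ± 0.434 to 42.0 ± 3.57 CPM. Il18 and Il1b, cytokine genes whose products caspase-1 matures, were chosen after their values were seen: Il18 had a log2 fold change of -0.43 that did not pass (adjusted p of 0.23), and Il1b had 3 normal and 16 OIR counts, or 5.10-fold (95% interval for counting error, 1.46 to 27.3), and did not pass without the filter (adjusted p of 0.240).

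Inhibitors and membrane repair genes had 13 of 16 tested, with 1 higher, none lower and a median log2 fold change of 0.04. The share higher, 7.69%, was near the 11.1% over all genes tested. The 2 genes of highest level, Gpx4, which guards membrane lipids from peroxidation, and Ppm1b, a phosphatase that acts on RIPK3, had log2 fold changes of -0.03 and 0.02 and did not pass. The higher gene was Anxa1, an anti-inflammatory annexin that takes part in membrane repair, named after its values were seen, which rose 2.49-fold from 19.4 ± 4.36 to 48.2 ± 15.2 CPM (SD, n = 3; edgeR adjusted p of 0.00171). A second member was higher without Normal 1 or Normal 2.

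**Figure D4:**
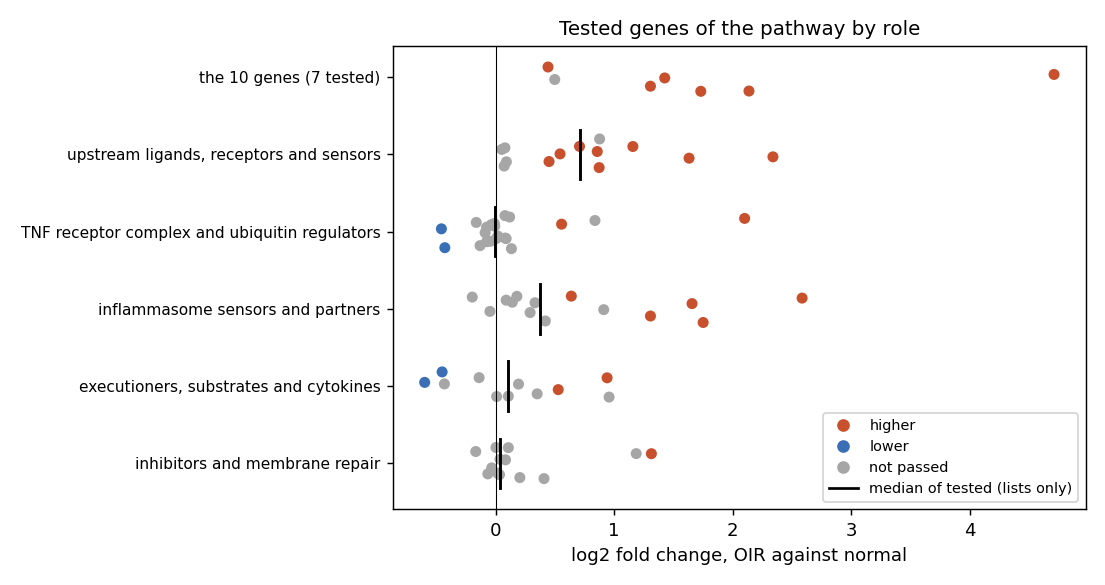
Log2 fold change, OIR against normal, of each tested gene of the 10 genes and of the 5 lists by role, red where higher and blue where lower at an edgeR adjusted p under 0.05 and grey otherwise, with a black line at the median of each list. The upstream list has its median at 0.71, and the receptor complex and inhibitor lists have medians near 0.

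Markers of other cell types moved over the same libraries, in which 11.1% of all genes tested were higher and 8.73% lower. Microglia and macrophage markers, cells in which several of the 10 genes are known to be expressed, were higher in 13 of 17 cases and lower in none, with a summed level of 99.1 to 119 CPM in normal and 183 to 240.0 CPM in OIR libraries. All 17 had counts in both groups. Csf1r, among the markers of highest level, had a log2 fold change of 0.42 that did not pass (edgeR adjusted p of 0.114). OIR 1 held the highest microglial sum and the highest Ripk1, Pycard, Casp1, Casp4 and Gsdmd. OIR 2 held the lowest microglial sum of the OIR libraries and the highest Tnfrsf1a, Fas, Casp8, Ripk3 and Mlkl. For Casp8 and Mlkl, OIR 3 was close to OIR 2, with 81 against 82 counts and 39 against 41 counts. The part of microglia in the differences was not tested.

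Neutrophil and monocyte markers summed to 0.243 to 1.08 CPM in normal and 0.999 to 1.65 CPM in OIR libraries, none of the 11 had enough counts to be tested, and Ly6g and Elane, picked out after their values were seen, had no count in any library. Lymphocyte markers summed to 1.40 to 2.22 CPM in normal and 2.42 to 4.42 CPM in OIR libraries. Endothelial markers were higher in 10 of 12 cases, with sums of 410 to 478 CPM against 621 to 709 CPM, and mural cell markers in 7 of 9 tested, with sums of 261 to 299 CPM against 666 to 756 CPM. Astrocyte and reactive glia markers were higher in 7 of 9 cases, with sums of 302 to 314 CPM against 1040 to 1190 CPM. Müller glia markers were lower in 5 of 10 cases and higher in 1, and rod markers lower in 4 of 8 and higher in none. Erythroid genes were higher in 4 of 5 cases, while the shares over all genes tested were 11.1% higher and 8.73% lower. The part of these cells in the differences was not tested, nor was that of the tissue with the high lens genes in OIR 3. Of the OIR libraries, OIR 3 had the lowest Tnfrsf1a, Ripk1, Pycard and Casp4. It lay between the others for Fas, Casp8, Ripk3, Mlkl, Casp1 and Gsdmd. Without OIR 3, 4 of the 10 genes were higher, Tnfrsf1a, Casp8, Ripk3 and Mlkl.

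**Figure D5:**
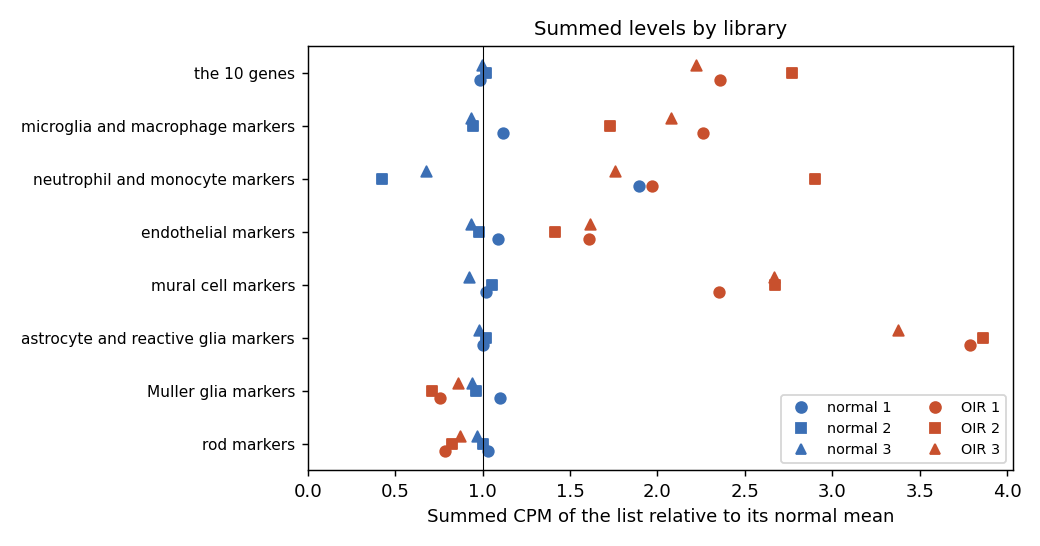
Summed CPM of the 10 genes and of 7 marker lists in each library, relative to the mean of the normal libraries of that list (vertical line at 1), with blue symbols for normal and red for OIR libraries and a symbol shape for each replicate number. The summed CPM of the 10 genes was 57.6 to 71.8 in the OIR libraries against 25.6 to 26.4 in the normal ones. In the OIR libraries the sums of rod and Müller glia markers lie below 1.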

How the data were processed

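RNA from 3 normal and 3 OIR samples of mouse retina was sequenced. Per the labels' protocols, TRIzol was used for isolation and the NEBNext Ultra kit for the libraries, whose standard form keeps no strand information. The authors deposited raw counts per gene, with the gene length in bases as another column. Per the submitters' processing notes, reads were handled with fastp and CASAVA 1.8, featureCounts 1.5.0-p3 and HISAT2 2.0.5, and DESeq2 1.20.0 was run, on mm10; annotation, strand setting and read filters: not given in the sources used here. Columns were matched to samples by group and number in their names. No libraries of a group were duplicates: their counts had a chi-square per degree of freedom of 7.20 to 23.1 over genes with at least 40 counts.

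From these counts, edgeR 4.0.16 (R 4.3.3; quasi-likelihood test, TMM scaling, filterByExpr with a minimum count of 10 and total of 15) was fitted to all 6 libraries and 17108 genes, with no covariate, Benjamini-Hochberg adjustment over all of them and a threshold of 0.05. The log2 fold change over the root of its F statistic gave the standard error. Genes left out held 0.164% of counts. Alternatives were DESeq2 1.42.0, limma-voom (limma 3.58.1), other scalings and filters, sex or replicate number as a term, each library left out, and a threshold of 0.01; lengths of the first-numbered transcripts were chosen after seeing the data. Simulated counts served to check the scripts. The 10 genes and the lists were chosen with earlier results of these data known. Named beside the 10 genes were, per list, up to 4 genes of smallest adjusted p among those that passed, or, where fewer than 2 passed, the 2 of highest level, and up to 2 markers of highest level. Results of some named genes are not reported here. Gene IDs matched GENCODE vM21 (mm10) for all 10 genes. Start, end and joined exon length matched too, except for Fas, with 1801 bases in the table against 2062 in vM21.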

Additional observations from a re-analysis of the deposited data

How the results depend on the processing

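Ripk3, Mlkl, Tnfrsf1a and Casp8 kept their direction and their call in all 15 alternatives, with highest adjusted p of 0.00332, 0.0191, 0.00062 and 0.0149. Ripk1 passed in 7 of 15 and Gsdmd in 5 of 14 (with at least 1 CPM in 3 libraries it was not tested), all in the same direction, and Pycard in none. The number of the 10 genes that were higher was 4 to 6 over these settings, and 4 to 5 when 1 library was left out, and none was lower in any. Over all genes, leaving out 1 library gave 1237 to 2097 higher and 761 to 1734 lower genes, and a threshold of 0.01 gave 1116 and 647. Without Normal 3 there were 1237 higher and 769 lower genes, and the lower genes numbered 761 without OIR 1 and 860 without OIR 2. For the upstream list, 5 genes were higher with sex as a covariate, 3 at the threshold of 0.01 and 4 to 6 with 1 library left out. The receptor complex list had 1 higher gene at 0.01. The inflammasome list had 3 with at least 1 CPM in 3 libraries, 3 at 0.01 and 3 to 6 with 1 library left out. The executioner list had 1 with sex as a covariate, 1 at 0.01 and 1 to 3 with 1 library left out, and the inhibitor list 2 with no filter and 1 to 2 with 1 library left out. The stricter threshold and the stricter filter call or test fewer genes by construction, and for the other changes, in either direction, the cause was not tested. Replicate numbers are shared between the groups. Deviations of same-numbered libraries correlated at 0.06, -0.16 and 0.07, and of 6 libraries 1 correlated best with its own number. With 3 libraries per group, centred within the group, these values cannot settle whether the numbers pair the samples. With the replicate number as a block, 4 of the 10 genes were higher, with adjusted p of 0.061 for Ripk1 and 0.083 for Gsdmd, and 1680 higher and 1166 lower genes in all. Over the lengths of the first-numbered transcripts, an alternative chosen after seeing the data, Casp4 stood above Ripk3 in normal retina, at 0.0571 against 0.0332 CPM per kb, and Fas stood above Pycard in OIR retina, at 0.384 against 0.346 CPM per kb. Depth limits Fas, Casp1 and Casp4, with 13, 5 and 4 normal counts.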
